A study of Mus musculus with 6 samples.

Results

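The 10 cardiac transcription factors Gata4, Gata6, Nkx2-5, Mef2a, Mef2c, Mef2d, Hand2, Tbx20, Srf and Tead1 were measured in the hearts of wild-type (WT) mice and of mice without the melanocortin-4 receptor (Mc4r KO). They were taken by gene name from the gene table, which holds 54532 genes, and each name matched 1 row. RNA was sequenced from 3 WT and 3 Mc4r KO mice of 12 weeks, with 1 library per mouse. The Mc4r KO mice were homozygous for the deletion, and the WT mice were littermates from crosses of heterozygous parents. All 6 mice had the C57B/6/N background and standard chow. The sources used here name no Cre driver and no heart-restricted allele for the knockout. The labels give the tissue both as heart and as muscle, and the study's discussion speaks of the left ventricle.

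These factors bind DNA and keep the genes of the heart muscle cell switched on, from the forming heart tube to the adult ventricle. GATA4, NKX2-5, TBX20, HAND2, MEF2 proteins and SRF bind near one another at sarcomere and ion channel genes and act together. MEF2 proteins and SRF share the MADS domain and answer to calcium and actin signals through class II histone deacetylases and MRTF cofactors, while TEAD1 binds DNA for the Hippo pathway cofactors YAP and TAZ. Expression of the 10 genes and of the genes around them was compared between the groups to see whether this regulatory layer differed in hearts without the receptor.

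Expression was given as FPKM, the fragments counted on each gene after correction for gene length, so that levels can be set side by side between genes. The value of 1 read did not follow the reads on genes from library to library, and median-of-ratios factors computed from the FPKM were 1 in each library, so the deposited values already carry such a scaling. WT libraries held 14767929 to 16047003 reads on genes, and Mc4r KO libraries 14691076 to 15649074. Mc4r itself had 0, 0 and 2 reads in WT and 0 reads in each Mc4r KO library, so its own level does not check the labels in this tissue. Summed FPKM of 9 cardiomyocyte markers ranged from 8282 to 8663 in WT and from 8910 to 9640 in Mc4r KO. Skeletal muscle markers summed to at most 1.49 in any library, so the defining genes of heart were abundant and those of skeletal muscle near 0. WT replicate 3 stood apart in 7 atrial markers, whose sum was 858 there and between 13.1 and 150 in the other 5 libraries. All 7 had their highest level in that library, and Sln and Bmp10 were at 0 in some of the others. Red cell markers summed to 4497, 859 and 6344 in WT and to 1651, 663 and 620 in Mc4r KO. Mitochondrial transcripts took 59.3%, 57.4% and 47.1% of the summed FPKM in WT and 43.0% to 46.6% in Mc4r KO. Over genes with a mean of at least 1 FPKM, WT replicate 3 correlated at 0.946 and 0.952 with WT replicates 1 and 2. With the Mc4r KO libraries it correlated at 0.951 to 0.962, so a fit without it drops the WT library most like Mc4r KO. Where a factor was called or had an adjusted p under 0.05 without WT replicate 3, both fits are given.

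The stretch upstream of the start site is shown for the 4 factors whose WT and Mc4r KO values did not overlap, since this is where regulators such as SRF itself can bind. In the gene table (mm10), Srf lies at chr17:46548329-46556175 and Nkx2-5 at chr17:26838664-26841565, both on the minus strand. Mef2a lies at chr7:67231163-67372858 on the minus strand and Mef2c at chr13:83504034-83667080 on the plus strand. The set of RefSeq (GRCm38.p6) promoters used here held start sites for 7 of the 10 genes. These were Nkx2-5, Mef2a, Mef2c, Mef2d, Hand2, Tbx20 and Srf. That Gata4, Gata6 and Tead1 were absent says nothing about RefSeq as a whole. Both strands of the 250 bases before each start were searched for 6 motifs, the CArG box bound by SRF, the MEF2 box, GATAA for GATA factors, AAGTG for NKX2-5, GGAATG for TEAD factors and AGGTGT for T-box factors. Capitals mark the matches. The windows lie at chr17:46556163-46556412 (minus strand) for Srf, chr17:26841566-26841815 (minus strand) for Nkx2-5, chr7:67372859-67373108 (minus strand) for Mef2a and chr13:83503784-83504033 (plus strand) for the first of 3 Mef2c starts. Each ends 1 base before the RefSeq start and reads 5′ to 3′, and for Srf the last stretch lies inside the gene as the table places it.
Srf: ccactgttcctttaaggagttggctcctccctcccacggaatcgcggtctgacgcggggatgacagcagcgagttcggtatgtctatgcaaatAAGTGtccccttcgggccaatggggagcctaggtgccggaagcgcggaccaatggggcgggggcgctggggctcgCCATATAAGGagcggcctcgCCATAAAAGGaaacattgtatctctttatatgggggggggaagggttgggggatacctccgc
Nkx2-5: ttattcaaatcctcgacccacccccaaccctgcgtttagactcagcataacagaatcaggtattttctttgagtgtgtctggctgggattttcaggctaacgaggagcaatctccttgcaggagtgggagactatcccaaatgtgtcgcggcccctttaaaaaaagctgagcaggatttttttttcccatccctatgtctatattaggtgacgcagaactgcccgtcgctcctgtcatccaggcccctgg
Mef2a: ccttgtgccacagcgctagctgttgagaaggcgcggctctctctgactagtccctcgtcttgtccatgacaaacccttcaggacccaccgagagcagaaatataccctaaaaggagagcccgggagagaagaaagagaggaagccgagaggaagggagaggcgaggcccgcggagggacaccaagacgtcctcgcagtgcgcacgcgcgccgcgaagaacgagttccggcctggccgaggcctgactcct
Mef2c: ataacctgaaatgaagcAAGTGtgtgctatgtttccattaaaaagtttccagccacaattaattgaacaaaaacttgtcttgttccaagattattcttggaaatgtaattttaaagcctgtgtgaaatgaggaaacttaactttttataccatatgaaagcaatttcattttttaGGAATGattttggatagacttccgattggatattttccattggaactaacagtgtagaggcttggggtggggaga

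Srf carried 2 CArG boxes, from 82 to 73 and from 62 to 53 bases before its start, and 1 NKX match from 157 to 153, none of which overlapped. A CArG box occurred in 1.47% of all 32851 promoters of this length. Nkx2-5, Mef2a, Mef2d and Tbx20 had no match to the 6 motifs in these windows. The first Mef2c start had 1 NKX match and 1 TEAD match. The second had 2 GATA matches, 1 T-box match and 1 NKX match, and the third had 1 NKX match. Hand2 had 2 GATA matches and 1 NKX match, and these letters are common, with GATAA in 22.6% and AAGTG in 40.7% of all promoters. A match only says that the letters are present.

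By level, Nkx2-5 led the factors in WT hearts with a mean of 37.3 FPKM, followed by Mef2d at 29.996, Gata4 at 25.2 and Srf at 24.0. A middle group held Mef2a at 14.0, Hand2 at 13.5 and Tead1 at 13.5, and Gata6 at 10.6, Tbx20 at 9.68 and Mef2c at 5.81 came last. Gata4 and Srf overlapped in their WT values. So did each pair of neighbours from Mef2a through Hand2, Tead1 and Gata6 to Tbx20, so their order within that stretch is not resolved by 3 mice. In Mc4r KO hearts the means ran from Nkx2-5 at 52.8, Srf at 36.3, Mef2d at 29.1 and Gata4 at 27.6 to Gata6 at 9.49 and Mef2c at 4.20. Hand2 (18.6), Tead1 (14.0), Mef2a (9.68) and Tbx20 (9.54) lay between. Each factor had at least 296 reads in every library, so counting error was at most 5.81% of a value.

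**Figure D1:**
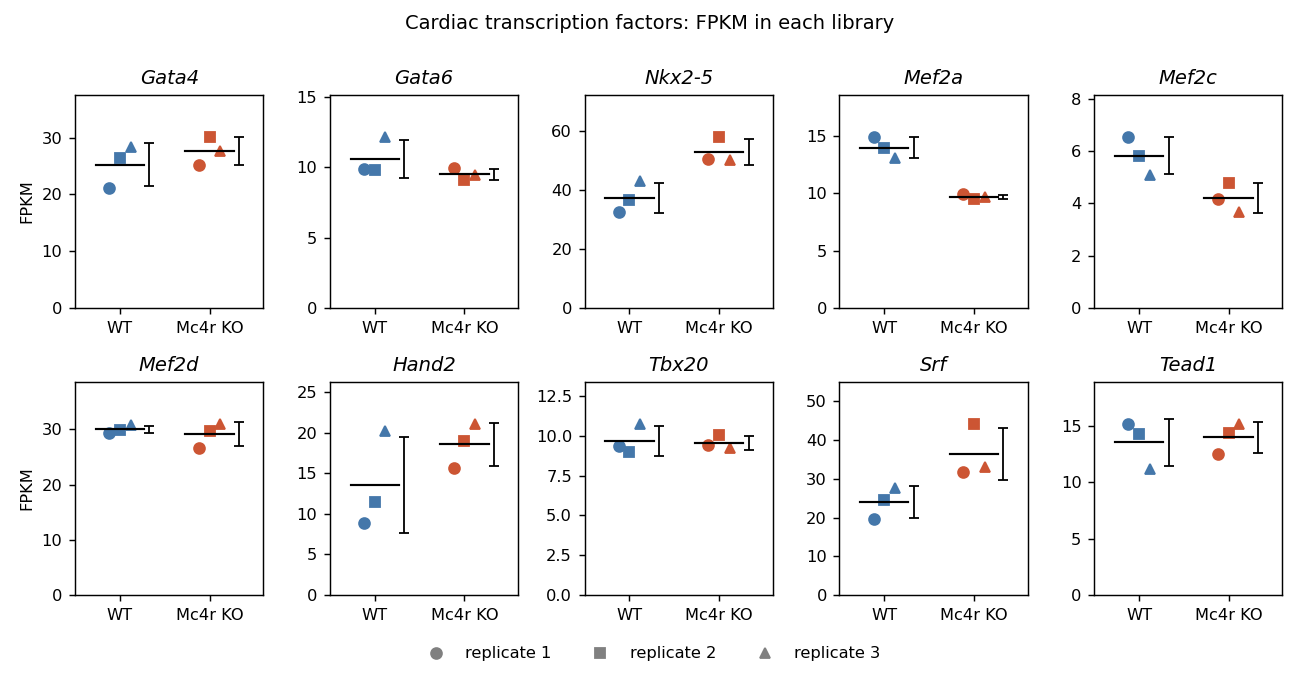
FPKM of the 10 factors in each of the 3 WT (blue) and 3 Mc4r KO (red) libraries. Marker shapes give the replicate number, horizontal lines the group means and bars ± 1 SD. Srf and Nkx2-5 are higher and Mef2a and Mef2c lower in every Mc4r KO library than in any WT library, while the other 6 overlap.

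None of the 10 factors passed the test between the groups. In limma on log2(FPKM + 0.1) over 18035 genes, a gene was called at an adjusted p under 0.05 with a log2 fold change beyond 0.75 in either direction, and 0.46% of all genes tested were called. With no threshold on the fold change, 0 of the 10 factors and 0.582% of all genes had an adjusted p under 0.05. At an unadjusted p under 0.05 there were 4 factors, 2 higher and 2 lower in Mc4r KO, where 20.9% of all genes reached that level. The same 4 factors had no overlap between the groups, against 26.4% of all genes (14.1% higher and 12.4% lower). Limma voom on the reads recovered from the FPKM also called 0 factors, where it called 1.76% of all genes. It gave 2 of the factors, Mef2a and Nkx2-5, an adjusted p under 0.05, and 4.58% of all genes. The median log2 fold change over the 10 was 0.02, against -0.01 over all genes, and with the libraries scaled to the FPKM outside the mitochondrial chromosome it was -0.18 against -0.19. Of all 83 calls 68.7% were higher in Mc4r KO, and of the 41 calls under that scaling 39%.

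Nkx2-5 is the homeodomain factor that marks cardiac progenitors and maintains the working and conducting heart muscle. Its FPKM was 32.6, 36.5 and 42.9 in WT and 50.4, 57.9 and 50.2 in Mc4r KO, so the lowest Mc4r KO value lay above the highest WT value. The log2 fold change was 0.51 (SE 0.12, 95% interval 0.22 to 0.79, adjusted p = 0.0983 in limma). In single libraries the gene is represented by 700 to 1342 reads over 1525 bases, the shortest of the 10 genes. Without WT replicate 3 the difference was 0.61 with an adjusted p of 0.0304, a fit in which 8.56% of all genes had an adjusted p under 0.05. With any other library left out, the adjusted p was between 0.227 and 0.311. The log2 fold change was 0.05 (adjusted p = 0.804 in limma) after removal of the GC content trend and 0.31 with scaling outside the mitochondrial chromosome.

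Srf encodes serum response factor, which drives actin and other muscle genes from CArG boxes, its own among them. The 3 WT libraries had 19.6, 24.6 and 27.7 FPKM, and the 3 Mc4r KO libraries 31.8, 44.0 and 33.1. The groups did not overlap, although Mc4r KO replicate 2 lay well above the other two. The log2 fold change of 0.60 was the highest of the 10 (SE 0.17, 95% interval 0.20 to 0.99, adjusted p = 0.124 in limma), and was 0.45 without Mc4r KO replicate 2 and 0.71 without WT replicate 3. Both CArG boxes upstream of the gene are in the sequence shown earlier.

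Among the MEF2 factors, Mef2a and Mef2c were lower in every Mc4r KO library and Mef2d was not. Mef2a, the first of these MADS-domain factors, had 14.9, 14.0 and 13.0 FPKM in WT and 9.90, 9.50 and 9.63 in Mc4r KO. The Mc4r KO values had an SD of 0.202 FPKM and lay below every WT value. Its log2 fold change was -0.52 (SE 0.08, 95% interval -0.72 to -0.32, unadjusted p = 0.000417, adjusted p = 0.0554 in limma). This was the smallest p of the 10 factors and ranked 135 of 18035 genes. Over 21 alternatives its log2 fold change stayed between -0.72 and -0.38, and the adjusted p was between 0.0146 and 0.23, under 0.05 in 5 and above it in 16. Without WT replicate 3 it was 0.0188, in the fit where 8.56% of all genes had an adjusted p under 0.05, and after removal of the GC content trend it was 0.067.

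Mef2c, which is needed for the looping heart and is also expressed in vessels and immune cells, was the lowest of the 10 factors in both groups. WT libraries had 6.52, 5.82 and 5.10 FPKM and Mc4r KO libraries 4.16, 4.77 and 3.66. All Mc4r KO values lay below all WT values, and the gap was narrowest between WT replicate 3 and Mc4r KO replicate 2. The log2 fold change was -0.46 (SE 0.14, 95% interval -0.79 to -0.13, adjusted p = 0.136 in limma).

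Mef2d, the most abundant MEF2 gene here, had 29.4, 29.9 and 30.7 FPKM in WT and 26.7, 29.7 and 30.9 in Mc4r KO. These values overlapped, and the log2 fold change was -0.05 (95% interval -0.24 to 0.15). After each library's trend with GC content was removed, Mef2a was at -0.38, Mef2c at -0.29 and Mef2d at -0.20, so the members lay closer together. Mef2b, the remaining family member, reached at most 0.229 FPKM and was at 0 in WT replicates 1 and 3. It is named to complete the family. Of the exonic bases of Mef2d, 8.87% are shared with 1700113A16Rik on the opposite strand.

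Within each library the 3 MEF2 genes can be set against each other, which removes the library's scaling. Mef2a made up 29.3%, 28.1% and 26.7% of their summed FPKM in WT and 24.3%, 21.6% and 21.8% in Mc4r KO. The mean share was 28.04% ± 1.29 (SD, n = 3) in WT and 22.5% ± 1.505 (SD, n = 3) in Mc4r KO. Mef2d took the larger part in Mc4r KO, 67.7% ± 2.21 against 60.3% ± 2.50 in WT, and neither of these shares overlapped between the groups. Mef2c held 11.7% ± 1.21 in WT and 9.78% ± 1.33 in Mc4r KO, with overlap. The sum of the 3 was 50.8, 49.7 and 48.9 FPKM in WT and 40.8, 44.0 and 44.2 FPKM in Mc4r KO, again with no overlap. Unlike the shares, this sum depends on the scaling. A two-sided exact permutation test gave p = 0.1 for the Mef2a and Mef2d shares, the smallest p that 3 against 3 can give, and the adjusted p over 5 shares was 0.25.

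**Figure D2:**
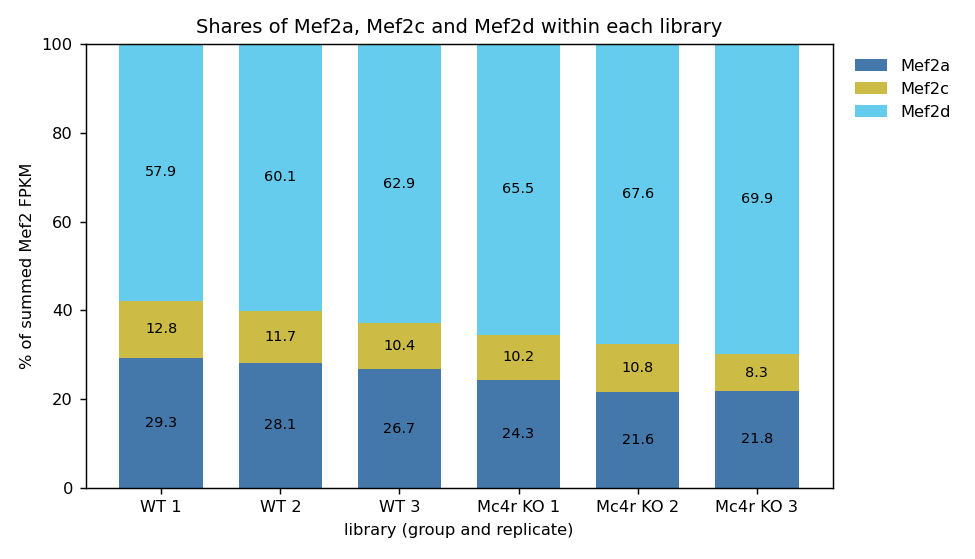
Share of Mef2a (dark blue), Mef2c (yellow) and Mef2d (light blue) in their summed FPKM in each library, as stacked bars that add to 100%. Mef2a is at 26.7% to 29.3% in the WT libraries and at 21.6% to 24.3% in the Mc4r KO libraries, and Mef2d is at 57.9% to 62.9% in WT and 65.5% to 69.9% in Mc4r KO.

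GATA factors showed no separation. Gata4, a zinc finger factor that partners with most of the others, had 21.04, 26.3 and 28.4 FPKM in WT and 25.2, 30.04 and 27.7 in Mc4r KO. The groups overlapped, with a log2 fold change of 0.14 (95% interval -0.17 to 0.44) that was -0.06 when the libraries were scaled to the FPKM outside the mitochondrial chromosome. Gata6, its close relative, had 9.86, 9.78 and 12.1 FPKM in WT and 9.90, 9.10 and 9.46 in Mc4r KO, which overlapped as well. Its log2 fold change was -0.15 (95% interval -0.41 to 0.11). With scaling outside the mitochondrial chromosome it was -0.34 (95% interval -0.59 to -0.10, adjusted p = 0.13 in limma), and with the GC content trend removed -0.31. Gata4 made up 70.4% ± 2.42 (SD, n = 3) of the sum of both in WT and 74.4% ± 2.48 (SD, n = 3) in Mc4r KO, and an exact permutation test gave p = 0.2 (adjusted over 5 shares, 0.25).

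Hand2, a basic helix-loop-helix factor of the right ventricle and outflow tract, spread more than any other factor. Its WT values of 8.93, 11.5 and 20.2 FPKM overlapped the Mc4r KO values of 15.7, 19.0 and 21.02. The log2 fold change was 0.53 (SE 0.28, 95% interval -0.14 to 1.19, adjusted p = 0.337 in limma). Without WT replicate 3 it was 0.86 with an adjusted p of 0.0467 and was called, in a fit that called 3.5% of all genes, 2.45% as higher. Without WT replicate 1 it was 0.27. WT replicate 3, where Hand2 was highest among WT, was also the library with an atrial marker sum of 858, and the part of this in the Hand2 value was not tested. Of the exonic bases of Hand2, 19.6% are shared with Hand2os1 on the opposite strand. Whether the counting used strand is not given in the sources used here, so reads in that stretch cannot be assigned to either gene with certainty.

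Tbx20, a T-box factor of the adult heart muscle cell, had 9.36, 8.95 and 10.7 FPKM in WT and 9.39, 10.02 and 9.20 in Mc4r KO. The ranges lay nearly on top of each other, with a log2 fold change of -0.02 (95% interval -0.25 to 0.22). Tead1, the DNA-binding partner of YAP and TAZ, had 15.1, 14.3 and 11.2 FPKM in WT and 12.5, 14.3 and 15.1 in Mc4r KO. Its log2 fold change was 0.05 (95% interval -0.27 to 0.38) and -0.14 under that scaling, and WT replicate 3 was the lowest of the 6. Tead1 supplied 78.0% ± 3.33 (SD, n = 3) of the summed FPKM of Tead1 to Tead4 in WT and 75.8% ± 2.91 (SD, n = 3) in Mc4r KO (exact permutation p = 0.4). In the main fit the intervals of Gata4, Gata6, Mef2d, Tbx20 and Tead1 all lay within 0.5 of 0 on the log2 scale. This bounds a difference in that fit without showing that there was none. The bound did not hold in every fit. With scaling outside the mitochondrial chromosome the interval reached -0.59 for Gata6 and -0.53 for Tead1. Without WT replicate 3 the log2 fold change of Gata4 was 0.23, and its interval reached 0.55.

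**Figure D3:**
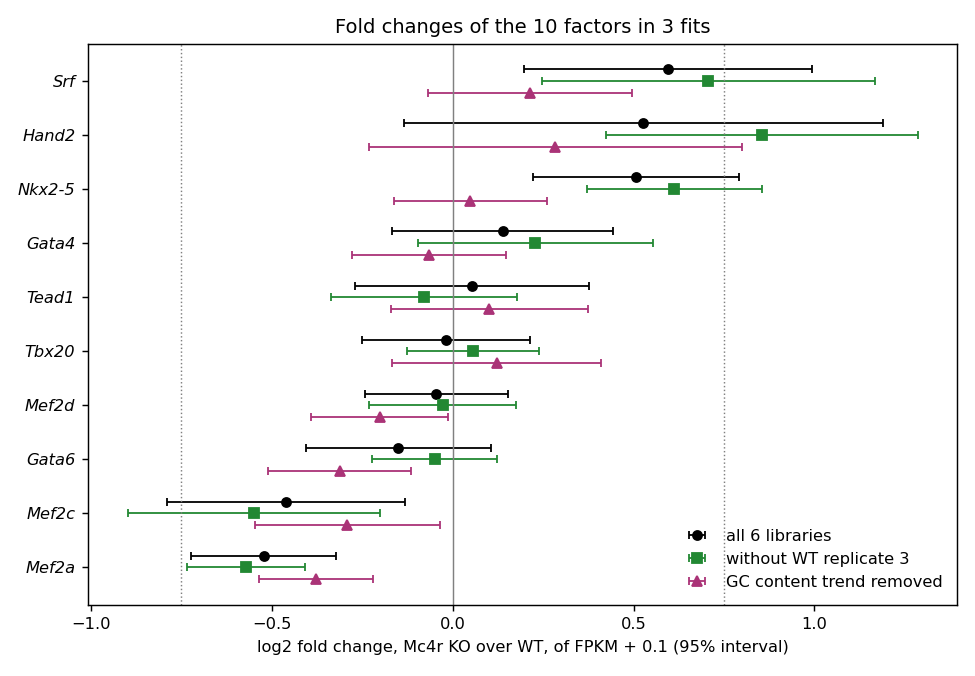
Log2 fold change of Mc4r KO over WT for the 10 factors, with 95% intervals, with all 6 libraries (black circles), without WT replicate 3 (green squares) and after each library's trend with GC content was removed (purple triangles). Dotted lines mark ± 0.75. Hand2 moves from 0.53 to 0.86 without WT replicate 3, and Nkx2-5 from 0.51 to 0.05 after removal of the GC content trend.

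The 4 factors without overlap between the groups lay at the ends of the range of base composition among the 10, while Hand2, with overlap and a larger log2 fold change than 3 of them, has 59.3% GC. Nkx2-5 and Srf have transcripts of 67.1% and 64.4% GC, and Mef2c and Mef2a of 40.8% and 42.02%. Among genes with a mean of at least 1 FPKM, the median log2 fold change went up with GC content, from -0.19 over 1345 genes of up to 42% GC to 0.32 over 480 genes above 60% GC. After each library's trend with GC content was removed, an alternative chosen after seeing the data, the log2 fold change was 0.05 for Nkx2-5 (adjusted p = 0.804 in limma), 0.21 for Srf (0.375), -0.38 for Mef2a (0.067) and -0.29 for Mef2c (0.209). No factor then had an adjusted p under 0.05, beside 0.516% of all genes, while 4 had an unadjusted p under 0.05, all lower in Mc4r KO, beside 9.53% of all genes. These were Mef2a, Mef2c, Mef2d and Gata6. Gene length ran alongside, since Mef2a, Mef2c, Tbx20 and Tead1 are above 10000 bases in length, and with the length trend removed Nkx2-5 was at 0.34, Srf at 0.51, Mef2a at -0.40 and Mef2c at -0.34. Tbx20, with 42.3% GC, was at -0.02 where the median of genes between 42% and 46% GC was -0.10, and Mef2a, in the same range, was at -0.52. Gata6, with 55.3% GC, was at -0.15 where the median of genes between 55% and 60% was 0.18. What part of each difference belongs to base composition was not tested.

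**Figure D4:**
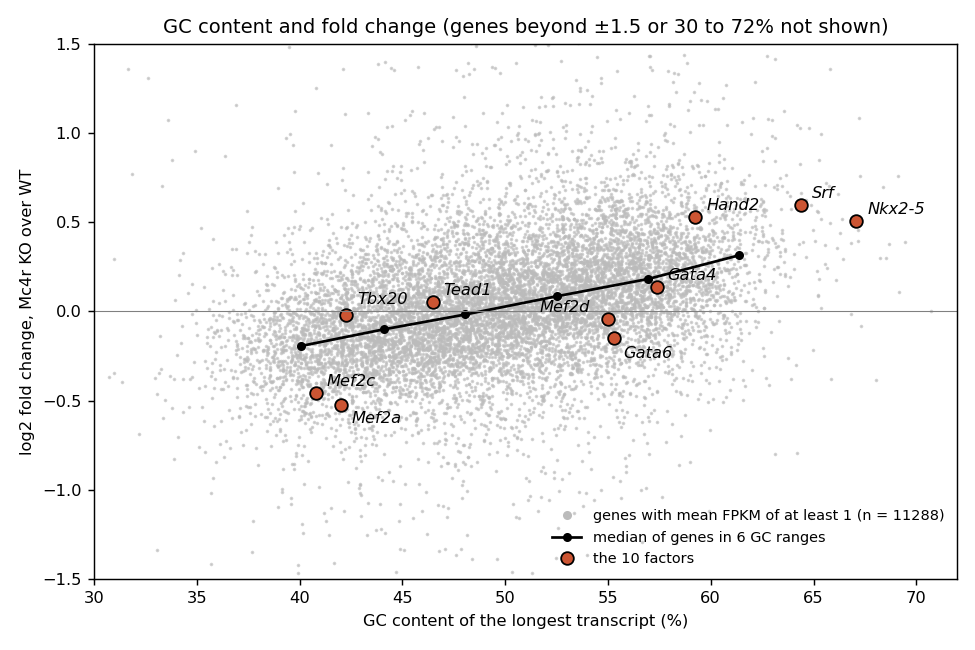
GC content of the longest transcript (%) against log2 fold change of Mc4r KO over WT for 11288 genes that average 1 FPKM or more (grey), with medians in 6 GC ranges (black) and the 10 factors (red). The medians climb from -0.19 to 0.32, with Mef2a and Mef2c at the low end and Srf and Nkx2-5 at the high end.

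Of 22 other factors of the developing or adult heart, 19 had a mean of at least 0.1 FPKM. Hand1 and Isl1, factors of the early heart fields, were among those below it. The test called 0 of the 19 with limma and 0 with voom, while 1 was higher and 3 were lower at an unadjusted p under 0.05. Without overlap there were 3 higher and 3 lower, 31.6% of the 19, near the 26.4% of all genes. Irx3, an Iroquois factor of the conduction system, separated upward, at 6.52, 8.07 and 9.55 FPKM in WT and 11.3, 10.01 and 14.7 in Mc4r KO (log2 fold change 0.57, adjusted p = 0.153 in limma). Prox1, a homeobox factor, lay the other way, at 9.59, 8.37 and 7.35 FPKM in WT and 6.16, 6.002 and 6.63 in Mc4r KO (-0.42, 0.123). Irx4, which marks the ventricle, overlapped at 8.60 to 11.7 FPKM in WT and 9.64 to 12.2 in Mc4r KO. In bulk tissue, fewer cells of a type and less RNA per cell cannot be told apart.

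Cofactors and upstream regulators, such as MRTFs, YAP, TAZ, class II histone deacetylases and NFAT factors, numbered 26, of which 25 were tested. None was called by limma or voom, 3 were lower and 0 higher at an unadjusted p under 0.05, and 2 were higher and 6 lower without overlap. This was 32% of the 25, near the 26.4% of all genes, of which 14.1% were higher and 12.4% lower. Their median log2 fold change was -0.15. Hopx, a homeodomain protein that does not bind DNA itself and acts on SRF, was the most abundant, with 66.7, 63.5 and 77.8 FPKM in WT and 82.1, 73.1 and 89.0 in Mc4r KO. The groups overlapped in Hopx. Wwtr1, which encodes TAZ, had 16.7 to 19.5 FPKM in WT and 15.7 to 17.5 in Mc4r KO, and Hdac5, which represses MEF2 proteins, 8.88 to 10.8 and 10.6 to 11.6. Hdac4 and Hdac9, of the same deacetylase class and chosen after their values were seen, were lower without overlap, with log2 fold changes of -0.34 (adjusted p = 0.178 in limma) and -0.36 (0.192).

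Genes that these factors are known to drive in heart muscle, 32 sarcomere, calcium, ion channel and hormone genes, held no gene that passed the test. None was called by limma or voom, but 12 were higher and 1 was lower without overlap, beside 14.1% and 12.4% of all genes, and the median log2 fold change was 0.23. At an unadjusted p under 0.05 there were 10 higher and 1 lower, beside 12% and 8.83% of all genes. Actc1, cardiac alpha-actin, was the most abundant, at 5495, 5470 and 4568 FPKM in WT and 7123, 8307 and 7188 in Mc4r KO. These did not overlap, and the log2 fold change was 0.54 (SE 0.19, adjusted p = 0.18 in limma). Its adjusted p in limma voom was 0.0198, short of a call by the fold threshold, where 4.58% of all genes were under 0.05. Myh6, the adult alpha-myosin heavy chain, ranged from 2231 to 2714 in WT and from 2697 to 3082 in Mc4r KO and overlapped, as did Myl3, the ventricular essential light chain. Gja1, which encodes connexin 43 and was chosen after its values were seen, was the only one of the 32 lower without overlap. It had 42.9, 35.5 and 38.9 FPKM in WT and 25.2, 26.0 and 27.99 in Mc4r KO (log2 fold change -0.56, adjusted p = 0.0579 in limma). Over 21 alternatives the adjusted p of Gja1 was between 0.0146, with limma voom, and 0.243, and Gja1 was called in 0. Without WT replicate 3 it was 0.0404, in a fit where 8.56% of all genes had an adjusted p under 0.05. With scaling outside the mitochondrial chromosome the median of the list was 0.03 where that of all genes was -0.19, and Actc1 was at 0.35. The median of the list was 0.09 after the GC content trend was removed and 0.14 without WT replicate 3. The sum of the cardiomyocyte markers, most of which are also in this list, was also higher in every Mc4r KO library than in any WT library, and fibroblast markers lower, at 155 to 182 against 209 to 223 FPKM. The markers did not all move with their sums. Of 9 cardiomyocyte markers 2 were higher without overlap, and 6 fold changes were positive and 3 negative. Of 8 fibroblast markers 3 were lower without overlap, and 6 fold changes were negative and 2 positive. Dcn alone had 109 to 125 FPKM in WT and 77.1 to 87.0 in Mc4r KO. The part of these sums in the result for the target genes was not tested.

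Among 18 target genes of SRF outside the sarcomere list, 1 was called, as higher in Mc4r KO, beside 0.316% of all genes. Fhl2, a LIM-domain protein of the sarcomere that also acts as a cofactor, rose from 591, 604 and 549 FPKM in WT to 1017, 1185 and 1089 in Mc4r KO. The log2 fold change was 0.91 (SE 0.11, 95% interval 0.65 to 1.18, adjusted p = 0.0355 in limma), and limma voom called it too. Leaving out any 1 of WT replicates 1 and 2 and Mc4r KO replicates 1, 2 and 3 ended the call. Over 21 alternatives Fhl2 was called in 10, with log2 fold changes between 0.72 and 0.97 and adjusted p-values between 0.00141 and 0.199. Of the other list members 0 were higher and 3 lower without overlap, and the median of the list was -0.03. Actb, cytoplasmic beta-actin, was lower without overlap, at 126, 133 and 121 FPKM in WT and 107, 110 and 80.1 in Mc4r KO (-0.37, adjusted p = 0.192), and Lmod2, which lengthens thin filaments, overlapped.

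CArG boxes occurred in a larger share of the target genes than of all promoters. The targets had been listed for their known regulation by SRF or in heart muscle. A box was found in 5 of 13 SRF target genes with a promoter in the set used here (38.5%). It was found in 5 of 28 cardiomyocyte target genes (17.9%), beside 1.47% of all promoters. The units differ. A listed gene counted when any of its promoters had a box, so several starts gave it more chances than a single promoter. Windows of 30 bases around the box, with the box in capitals, are shown for the target genes that carry one and whose values did not overlap. Positions are on GRCm38.p6.
Fhl2, chr1:43163973-43164002, minus strand: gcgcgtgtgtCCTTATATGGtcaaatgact
Fhl2, chr1:43196838-43196867, minus strand: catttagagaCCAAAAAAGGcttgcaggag
Actc1, chr2:114052903-114052932, minus strand: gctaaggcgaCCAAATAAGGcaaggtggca
Ldb3, chr14:34588697-34588726, minus strand: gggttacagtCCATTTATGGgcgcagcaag
Actg1, chr11:120348566-120348595, minus strand: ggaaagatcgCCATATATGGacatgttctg

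The CArG carriers without overlap did not share 1 direction, and Fhl2 was the only carrier called. Over all genes, 26.4% did not overlap, 14.1% higher and 12.4% lower. Fhl2, Actc1 and Ldb3, a Z-disc protein, were higher in all Mc4r KO libraries. Ldb3 was at 121, 141 and 132 FPKM in WT and 166, 202 and 183 in Mc4r KO (log2 fold change 0.48, adjusted p = 0.0871 in limma). Its adjusted p in limma voom was 0.0291, without a call. Actg1, cytoplasmic gamma-actin, was lower in all Mc4r KO libraries, at 82.2, 77.1 and 74.4 FPKM in WT and 62.8, 69.5 and 50.1 in Mc4r KO (-0.37, 0.174 in limma). The other carriers, Acta1, Myl3, Myl7, Myl9, Vcl and Egr2, overlapped between the groups. Apart from Myl3, these 6 were named for their CArG boxes and not by the rule for named genes, as were Ldb3 and Actg1.

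YAP and TEAD target genes numbered 12. None was called by limma or voom, 3 were lower and 0 higher at an unadjusted p under 0.05, and 1 was higher and 4 were lower without overlap, with a median log2 fold change of -0.10. Over all genes, 8.83% were lower and 12% higher at that p, and 14.1% were higher and 12.4% lower without overlap. Ankrd1, a stretch-responsive nuclear protein of heart muscle, had 518, 647 and 219 FPKM in WT and 346, 342 and 342 in Mc4r KO. The 3 WT mice spread around the Mc4r KO values, and WT replicate 3 was the lowest of all. With all 6 libraries the log2 fold change of Ankrd1 was -0.29 (adjusted p = 0.695 in limma). Without WT replicate 3 it was called lower in Mc4r KO, in a fit that called 3.5% of all genes, beside 0.46% in the main fit. Ctgf, a matricellular protein, had 25.5, 30.1 and 25.9 FPKM in WT and 25.2, 15.1 and 18.1 in Mc4r KO (log2 fold change -0.51, adjusted p = 0.186 in limma), and Axl, a receptor tyrosine kinase, overlapped. The TEAD letters GGAATG were upstream of 7 of 9 genes with a promoter (77.8%), beside 12.6% of all promoters. Here too the listed genes were counted with any of their starts and the promoters singly.

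**Figure D5:**
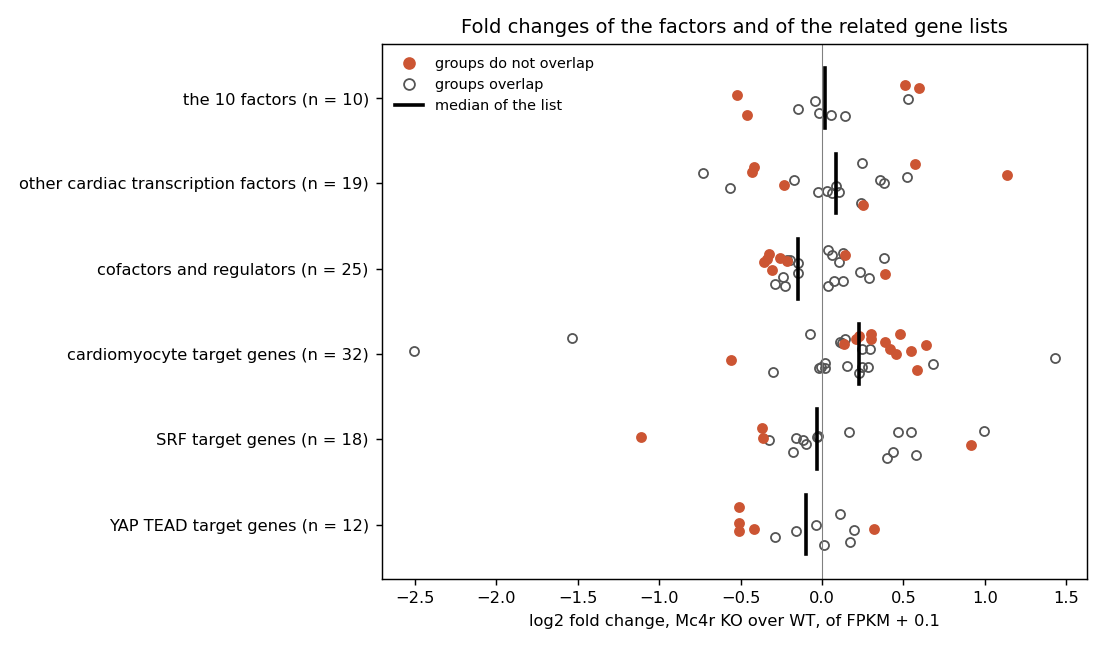
Log2 fold change of Mc4r KO over WT for the tested genes of each list, with filled red points where the 3 WT and 3 Mc4r KO values do not overlap and open points where they do. Vertical bars are list medians, 0.02 for the 10 factors, 0.23 for the cardiomyocyte target genes and -0.15 for the cofactors. Vertical scatter within a list has no meaning.

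Across all genes that the table assigns to a transcription factor family, 967 of 1469 were tested. Their median log2 fold change was -0.08, with 95 higher and 186 lower without overlap, and 4 were called, 2 in each direction. The share without overlap was 29.1%, near the 26.4% of all genes, of which 0.46% were called. By direction the split differed, since more of these genes were lower than higher, while of all genes 14.1% were higher and 12.4% lower. In the family the table calls SRF, which holds the MADS-domain genes, 5 of 6 members did not overlap, 3 upward and 2 downward, and 0 were called, with 4 at an unadjusted p under 0.05, beside 26.4% and 20.9% of all genes. Mef2b counts among the 3, with at most 5 reads in a library, and Srf, Mef2a and Mef2c are factors already described. In the other families of the 10 factors, the share without overlap was lower than in the SRF family. It was 18.2% for zf-GATA, 27.8% for Homeobox, 28.3% for bHLH, 11.1% for T-box and 25% for TEA, beside 26.4% of all genes.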

How the data were processed

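RNA was prepared from heart tissue of 3 WT and 3 Mc4r KO mice. Per the labels and the study's methods, the authors enriched polyadenylated RNA with the NEBNext Ultra kit, processed the reads with CASAVA, aligned them with HISAT2 2.0.5 to mm10 and counted them on genes with featureCounts. FPKM per gene and library were deposited together with each gene's position, length and transcription factor family. Strand settings and the annotation release are not given in the sources used here. Every FPKM column carried the name of 1 library, and groups come from the labels. Coordinates of genes are on mm10.

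Multiplied by gene length, 100% of the FPKM values were whole multiples of what 1 read is worth in that library (relative tolerance 0.0001), which gave back the reads per gene. Samples were scaled by median-of-ratios factors, which were 1 in each library. The test was limma 3.58.1 (R 4.3.3, with its data.table package in version 1.17.8) on log2(FPKM + 0.1), with the empirical Bayes trend, no covariate and Benjamini-Hochberg adjustment over the 18035 genes that averaged 0.1 FPKM or more. This scale understates changes of low genes. P-values were two-sided, and the fold threshold of 0.75 was the study's. Shares were compared by exact permutation tests. The limma script was tested on simulated data. GC content, exonic overlaps and gene ends came from GENCODE M21, which held 99.8% of the gene IDs, and Gata6 and Nkx2-5 had other ends there than in the deposited file. Upstream sequences came from RefSeq (GRCm38.p6). Tools were Python 3.11.15, pandas 2.3.3, scipy 1.17.1 and matplotlib 3.10.9.

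The members and gene lists were chosen with earlier results of these data known. Named genes are the 10 factors and, in each other list, the called genes (at most 5) and the 3 with the highest mean FPKM. Alternatives were pseudocounts of 1 and 0.01, no filter, a mean FPKM of at least 1, deposited FPKM without scaling, quantile normalization, scaling outside the mitochondrial chromosome or to cardiomyocyte markers, limma without trend, limma voom on recovered reads, protein-coding genes only, the replicate number as a block, and each library left out. Removal of the trend with GC content or gene length (lowess, span 0.3) and a minimum of 10 reads on average were added after seeing the data. The replicate numbers did not pair the mice.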

Additional observations from a re-analysis of the deposited data

How the results depend on the processing

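Over the 10 factors and 21 alternatives there were 210 log2 fold changes. Of these, 190 kept their direction and their side of an adjusted p of 0.05, 8 went past it in the same direction and 12 changed sign. The sign changes were in factors near 0. Gata4 was at -0.057 with scaling outside the mitochondrial chromosome and at -0.065 with the GC content trend removed. Mef2d was between -0.089 and 0.016 with 1 library left out, and Tbx20 between -0.071 and 0.057. Tbx20 was at 0.12 and 0.083 with the GC content and the length trend removed. Tead1 was at -0.056 with quantile normalization, -0.14 with scaling outside the mitochondrial chromosome, -0.073 with scaling to cardiomyocyte markers and between -0.078 and 0.14 with 1 library left out. The cause of these changes was not tested.

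The number of factors called was 0 in the main comparison and between 0 and 1 with 1 library left out, the 1 being Hand2 without WT replicate 3. The number with an adjusted p under 0.05 was 1 with a mean FPKM of at least 1, 2 with limma voom, 1 among protein-coding genes, 1 with at least 10 reads and between 0 and 3 with 1 library left out. In the lists, the number called among other factors was between 0 and 1 and among YAP and TEAD targets between 0 and 1 with 1 library left out, from Tbx18 and Ankrd1 without WT replicate 3. Among SRF targets it was between 0 and 2 with 1 library left out, and 0 with no filter, with scaling outside the mitochondrial chromosome or to cardiomyocyte markers, without trend, with the replicate block and with the length trend removed. These 2 scalings moved the median of all genes by -0.18 and -0.11. Over all genes the number called was 83, between 0 and 632 with 1 library left out (632 without WT replicate 3), 317 with limma voom, 204 among protein-coding genes, 180 with at least 10 reads, 147 with a mean FPKM of at least 1, 54 with scaling to cardiomyocyte markers, 49 with quantile normalization, 44 with a pseudocount of 1, 41 with scaling outside the mitochondrial chromosome, 22 without a filter and 21 without trend. Leaving out a library also removes residual degrees of freedom.

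With the replicate number as a block, 11 genes were called over all genes and 0 factors, with adjusted p-values in limma of 0.133 for Mef2a, 0.159 for Nkx2-5, 0.157 for Srf and 0.174 for Mef2c. WT and Mc4r KO libraries of the same number correlated in their deviations from the group means at -0.14, 0.01 and -0.08, so the numbers were not taken as pairing the mice, and not every library correlated best with its own number.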

Other observations

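Outside the lists, 4 genes that the table assigns to a transcription factor family passed the test. They were named because they were called, after their values were seen. Csdc2, a cold-shock domain RNA-binding protein, rose from 7.61, 8.21 and 10.8 FPKM in WT to 24.9, 28.8 and 28.4 in Mc4r KO (log2 fold change 1.63, adjusted p = 0.0109 in limma). Tcf23, a basic helix-loop-helix protein like Hand2, rose from between 0.603 and 0.778 FPKM to between 1.82 and 2.51 (1.49, 0.0349). Hlf, a PAR bZIP factor, fell from 11.5, 10.3 and 10.8 FPKM to 6.47, 4.61 and 5.60 (-0.97, 0.0415). Gm15446, a zinc finger gene, had 1.24, 0.921 and 0.839 FPKM in WT and at most 0.0348 in Mc4r KO.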
